A study of Mus musculus with 1279 samples.

Results

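Regulators of G protein signalling (RGS) were described in single cells of the mouse heart through 9 genes, Rgs2, Rgs3, Rgs4, Rgs5, Rgs7bp, Rgs10, Rgs12, Rgs16 and Rgs17. They were taken by symbol from the 46517 genes of the count table, and all 9 were present with reads. Each of the 1279 samples was 1 cell sequenced with Smart-seq2, a plate method that copies whole transcripts without molecular identifiers. Cells came from adult male mice of 10 to 20 weeks, backcrossed to C57Bl6/J, in 4 groups named for their strain. C57BL6 cells (45.4% of all) carried no reporter and were sorted with antibodies. PdgfrbGFP (28.5%), Cspg4dsRED (12.7%) and Acta2GFP (13.4%) cells were sorted for a fluorescent protein under regulatory sequence of Pdgfrb, Cspg4 or Acta2. The sort served to enrich cells and did not define their type. Endothelial CD31+ cells had been gated out in all groups, and elastase was added to the digestion of the Acta2GFP hearts.

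An RGS protein binds the active alpha subunit of a G protein and speeds its hydrolysis of GTP, which ends the signal of the receptor upstream. In vessel walls the receptors for endothelin, angiotensin, noradrenaline and sphingosine 1-phosphate act through such G proteins, and Rgs5 is widely used as a marker gene of pericytes. Rgs7bp is the exception among the 9, since its product carries no RGS domain and anchors RGS proteins of the R7 group to the membrane.

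The labels gave each cell a cluster of the authors. Clusters 1 to 5 are fibroblasts, the matrix-producing cells of connective tissue, and clusters 6 to 8 were taken here as mural cells, which wrap blood vessels. The summed level of a list of fibroblast markers ran from 10590 to 14489 CPM (counts of a gene scaled to a common library size) in clusters 1 to 5, and from 309 to 3334 CPM in clusters 7 and 8. Smooth muscle markers summed to 9946 to 15717 CPM in clusters 6 and 7, and pericyte markers to 3727.5 to 14040 CPM in cluster 8. Cluster 1 carried the valve markers, at 6302 to 7530 CPM against at most 738.5 CPM in clusters 2 to 5. Immune markers reached at most 34.5 CPM in fibroblast sums, and 184.5 CPM in 1 mural sum, cluster 7 of PdgfrbGFP. Among mural sums, Lyz2 alone reached 184.5 CPM and Csf1r 33.6 CPM, while Ptprc and Cd68 stayed at or below 0.185 CPM. Endothelial markers reached at most 317 CPM in fibroblast and 279.1 CPM in mural sums. Of these, Pecam1, the CD31 gene, reached 272.6 CPM in 1 mural sum, and Tek reached 286.5 CPM among fibroblast sums. Flt1 reached 61.1 CPM among mural sums, while Cdh5 stayed at or below 10.0 CPM. The T cell marker Cd3e was at 0 in all 27 sums. Reads per cell ran from 46268 to 1302397 without spike-ins, with medians of 167870 in cluster 8 and 349820 in cluster 4.

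Each reporter strain came with its own sort and a single plate, so between strains these cannot be told apart. Only C57BL6 lay on more than 1 plate. The labels name no animal, so the strain was the replicate: counts were summed per strain and cluster or side, sums of fewer than 3 cells were left out, and p-values measure the spread between strains, which is partly a spread between plates. C57BL6 cluster 6 held 3 cells with fibroblast markers at 12491 CPM, against 3223 and 3108 CPM in the other strains, and the edgeR log2 ratios of cluster 6 are also given without C57BL6. Clusters had been called by the authors on the same counts, so a difference between clusters is not independent of how the cells were divided.

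Rgs4 and Rgs5 lie next to each other on chromosome 1 of the mouse genome (GRCm38). Rgs5 spans chr1:169655501-169695813 on the plus strand and Rgs4 chr1:169741477-169747642 on the minus strand. The 45663 bases between their 3′ ends hold no annotated gene. Rgs2 (chr1:143999338-144004161, minus strand) and Rgs16 (chr1:153740349-153745468, plus strand) lie on the same chromosome. The others are Rgs3 (chr4:62559847-62704001, plus), Rgs12 (chr5:34949445-35039644, plus), Rgs10 (chr7:128373621-128418758, minus), Rgs17 (chr10:5825663-5922400, minus) and Rgs7bp (chr13:104945904-105054930, minus).

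The coding starts of 7 members are shown because 3 of them, Rgs4, Rgs5 and Rgs16, share a feature that acts on the protein and not on the RNA counted here. Their second codon, in capitals, encodes cysteine, which exposes these proteins to oxygen-dependent breakdown through the N-degron pathway once the first methionine is removed. The sequences are the first 30 bases of the coding region in transcripts of GENCODE release 21 for mouse, each with 1 start shared by the transcripts used.
Rgs4: atgTGCaaaggacttgcaggtctgccggct
Rgs5: atgTGTaagggactggcagctctgccgcac
Rgs16: atgTGCcgcaccctagccaccttccccaac
Rgs2: atgCAAagtgccatgttcctggctgtccag
Rgs10: atgTTCacccgcgccgtgagccgactgagc
Rgs17: atgAGAaaacggcagcagtcacaaaatgaa
Rgs7bp: atgAGTtctgcaccgaatgggcgcaaaaag
The second codon was TGC in Rgs4 and Rgs16 and TGT in Rgs5. Rgs2 had CAA, Rgs10 TTC, Rgs17 AGA and Rgs7bp AGT at this place. Without the stop codon, the coding regions ran over 543 bases in Rgs5 and Rgs10, 603 in Rgs16, 615 in Rgs4, 630 in Rgs17, 633 in Rgs2 and 771 in Rgs7bp.

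The 250 bases before the starts of Rgs5 and Rgs4 are shown because these neighbours were read together in most cells of clusters 7 and 8. They were taken from RefSeq promoter windows of GRCm38.p6 and are written 5′ to 3′ on the strand of the gene, at chr1:169655251-169655500 (plus) for Rgs5 and chr1:169747643-169747892 (minus) for Rgs4. Capitals mark ATTGG, which is CCAAT on the opposite strand, and a TATA sequence.
Rgs5 promoter: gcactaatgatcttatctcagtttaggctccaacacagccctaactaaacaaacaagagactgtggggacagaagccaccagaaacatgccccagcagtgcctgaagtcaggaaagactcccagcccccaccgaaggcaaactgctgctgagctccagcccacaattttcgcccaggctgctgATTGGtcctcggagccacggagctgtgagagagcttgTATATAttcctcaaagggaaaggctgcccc
Rgs4 promoter: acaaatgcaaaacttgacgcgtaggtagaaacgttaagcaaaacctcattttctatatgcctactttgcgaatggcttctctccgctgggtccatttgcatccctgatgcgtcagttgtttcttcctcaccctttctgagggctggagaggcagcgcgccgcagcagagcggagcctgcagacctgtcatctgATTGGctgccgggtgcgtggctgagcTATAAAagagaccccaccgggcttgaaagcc
ATTGG began 67 bases before the start of Rgs5 and 57 bases before that of Rgs4. The TATA sequence was TATATA at 30 bases before the start of Rgs5 and TATAAA at 31 bases before that of Rgs4. These motifs were chosen after the sequences had been seen. Of 32851 windows of 300 bases, 37.4% held CCAAT on either strand, 13.6% TATAAA and 5.67% TATATA. The CArG box (1.63% of windows), TGGGAA (25.6%), CATTCC (14.7%) and TGACGTCA (1.79%) were searched on both strands and had no match in the windows of Rgs4 or Rgs5. All 9 members matched a RefSeq window, 11 windows in all, and such matches are descriptions of sequence only.

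Over all cells the reads of the 9 genes were spread very unevenly. Rgs5 had 416419 reads, with at least 1 read in 77.5% of cells, and Rgs4 had 154832 reads in 60.05% of cells. Rgs3 followed with 25106 reads in 35.97% of cells, Rgs17 with 17200 in 23.8%, Rgs2 with 13219 in 22.1%, Rgs10 with 12057 in 22.4% and Rgs7bp with 9336 in 13.6%. Rgs12 had 5102 reads in 8.13% of cells, and its 5 highest cells held 47.96% of them. Rgs16 had 1239 reads in 30 cells, of which 5 cells held 96.8%. The counting setting for strand was not given in the sources used here, and Rgs12 and Rgs16 each overlap an antisense gene, Gm43791 and Gm28513. Reads counted for these came to 11.6% of the Rgs12 reads and 15.3% of the Rgs16 reads, and without strand the reads of such a pair cannot be told apart.

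Per kilobase of exon, the scale on which different genes can be compared, the order of mean levels was Rgs5 in cluster 8 (1556 ± 597 CPM per kb, SD, n = 4 strains), Rgs5 in cluster 7 (966 ± 728, n = 3), Rgs4 in cluster 7 (829 ± 176.8, n = 3) and Rgs4 in cluster 8 (527 ± 265.4, n = 4). Neighbours in this order overlapped over strains, except that the 3 values of Rgs4 in cluster 7 lay just above the 4 in cluster 8. The highest cluster mean of every other member was far below these, with SDs over 3 or 4 strains. Cluster 5, which 2 strains held, was left out of this order. That of Rgs7bp in cluster 7 came to 5.19% of the mean of Rgs4 there, and the others were at 34.8 ± 26.3 for Rgs2 in cluster 1, 26.7 ± 19.1 for Rgs10 in cluster 2, 16.1 ± 10.2 for Rgs17 in cluster 3, 11.9 ± 6.59 for Rgs3 in cluster 2, 4.77 ± 6.44 for Rgs12 in cluster 4 and 3.75 ± 2.64 CPM per kb for Rgs16 in cluster 4.

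**Figure D1:**
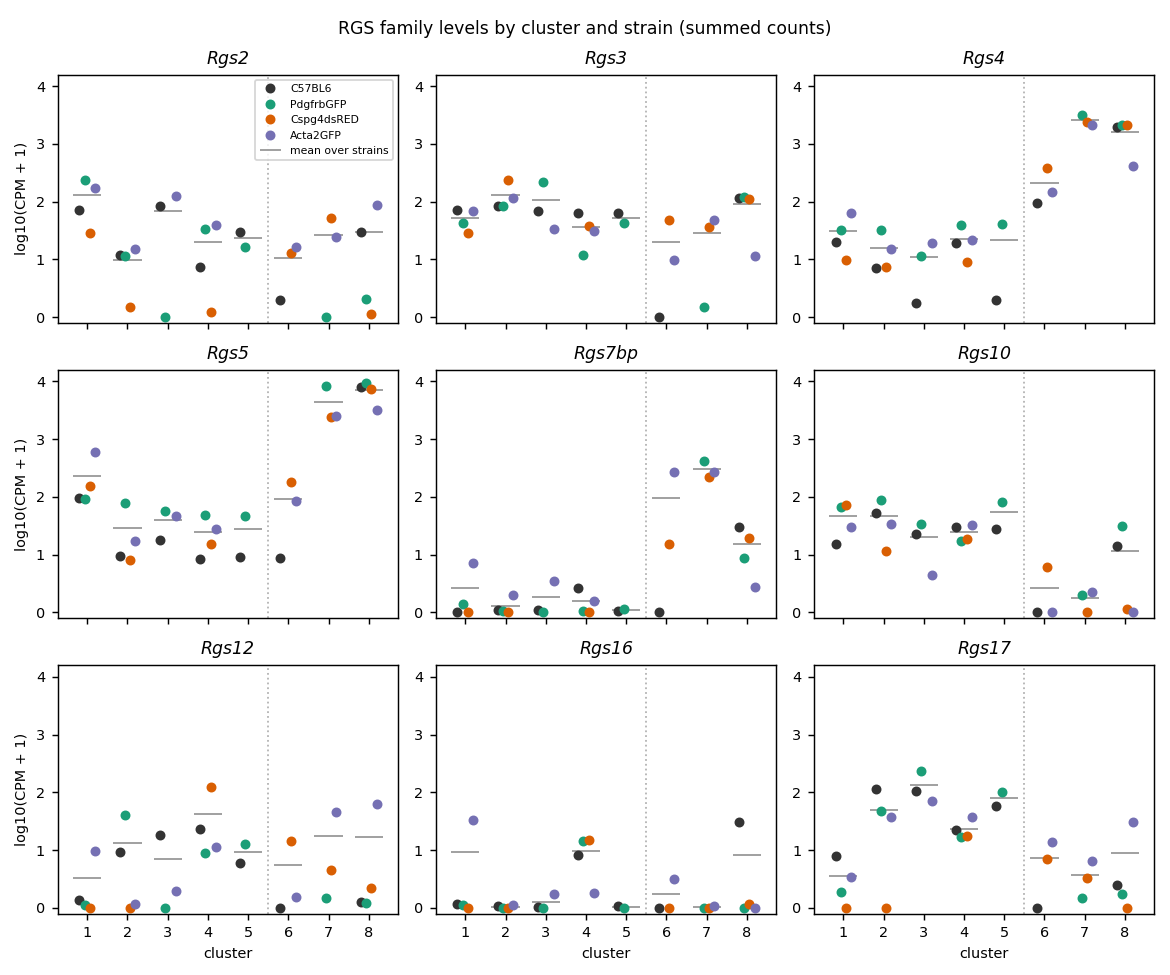
Level of each of the 9 genes as log10(CPM + 1) of summed counts in clusters 1 to 8, with 1 coloured point per strain, a grey bar at the mean over strains and a dotted line between fibroblast and mural clusters. Rgs4 and Rgs5 stand highest in clusters 7 and 8, Rgs7bp in cluster 7 at 217.8 to 426 CPM, and the other genes are low and scattered over strains.

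The first comparison asked which members separate fibroblasts from mural cells. Rgs4, Rgs5 and Rgs7bp were lower in fibroblasts in all 4 strains, and no member was called higher. Rgs4, a regulator of Gi and Gq signalling, was at 7.51 CPM in C57BL6 fibroblasts, 35.9 in PdgfrbGFP, 7.11 in Cspg4dsRED and 26.9 in Acta2GFP, and at 1699.5, 2221.5, 1717 and 1388 CPM in the mural cells of the same strains. The 2 sides were far apart in every strain, and the spread among mural values was small beside the gap. Averaged over the 4 strains, mural cells were at 1756 ± 345 CPM (SD) and fibroblasts at 19.4 ± 14.4 CPM. The log2 ratio by edgeR was -6.50 ± 0.667 (SE) at an adjusted p of 0.000514.

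Rgs5, a regulator of the same G protein classes, was at 12.5, 58.7, 21.98 and 149.5 CPM on the fibroblast side and at 7085, 9423, 2689 and 2553 CPM on the mural side, in the same order of strains. The sides did not overlap, but mural cells of C57BL6 and PdgfrbGFP stood well above those of the other strains. The log2 ratio by edgeR was -6.55 ± 0.928 at an adjusted p of 0.00291. Rgs7bp was close to undetected in fibroblasts, at 0.494, 0.124, 0 and 2.19 CPM, and at 25.02, 49.1, 118.1 and 182.1 CPM in mural cells. In C57BL6 all mural Rgs7bp reads came from 1 cell of cluster 8, and without this strain edgeR gave -7.18 at an adjusted p of 0.0457. The mural sides held different clusters, with cluster 8 giving 33 of 37 cells in C57BL6 and most of PdgfrbGFP, but 29 in Cspg4dsRED and 15 of 51 in Acta2GFP. On average the level was 0.701 ± 1.01 and 93.6 ± 70.96 CPM, with a log2 ratio by edgeR of -7.03 ± 1.26 at an adjusted p of 0.00953.

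These 3 calls among the 9 genes, all of which were tested, stood beside a background of 5.93% of the 15117 genes tested, and the 3 in the lower direction beside 2.45%. The share of genes called higher in fibroblasts was 3.47%. The median log2 fold change was 0.07 over the 9 members and -0.02 over all genes tested, with members on both sides of 0. All 3 calls were made in each of the 4 fits that left out 1 strain, with the strain as a block, and under the other settings tried. With 1 strain left out, the log2 ratio ran from -6.90 (without PdgfrbGFP) to -6.25 (without C57BL6) for Rgs4, from -7.68 (without Acta2GFP) to -6.08 (without C57BL6) for Rgs5 and from -8.04 (without Acta2GFP) to -6.62 (without Cspg4dsRED) for Rgs7bp.

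Rgs10 and Rgs17 leaned the other way without passing the test. Rgs17, an RGS protein of the RZ group, was at 65.7, 58.3, 7.49 and 32.5 CPM in fibroblasts and at 1.39, 0.729, 2.97 and 13.9 CPM in mural cells. It was higher in fibroblasts in 4 of 4 strains, although the fibroblasts of Cspg4dsRED lay below the mural cells of Acta2GFP. All Rgs17 reads of Cspg4dsRED fibroblasts lay in cluster 4, with 96.2% in 1 cell. Here edgeR gave 3.16 ± 1.05 at an adjusted p of 0.132, with 4.74 (0.0693) without Acta2GFP and 2.52 (0.384) without PdgfrbGFP, and DESeq2, which called 12.7% of all genes, called it with an adjusted p of 0.0119. Rgs10, a small RGS protein best known from immune cells, was at 32.1, 61.6, 17.7 and 28.04 CPM in fibroblasts and at 11.2, 26.97, 1.55 and 0.732 CPM in mural cells. It too was higher in 4 of 4 strains with overlapping ranges (log2 ratio 1.74 ± 1.05, edgeR adjusted p = 0.489). The log2 ratio was 1.04 in cells thinned to 50000 counts and 2.78 with the strain as a block. In cluster 8 of C57BL6, 1 cell held 97.9% of the Rgs10 reads. Immune markers summed to at most 34.5 CPM in fibroblasts, and their part in the Rgs10 level was not tested.

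The remaining members did not separate the sides. Rgs3, which acts on Gi and Gq, ran from 47.2 to 134.4 CPM over the fibroblast sums and from 31.4 to 108.01 CPM over the mural sums, with a log2 ratio of 0.07 ± 0.473 (edgeR adjusted p = 0.973) and a sign that flipped with the size factors of DESeq2 (-0.0014). Rgs2, which prefers Gq, was at 2.37 to 68.7 CPM against 0.972 to 42.8 CPM (0.56 ± 1.04, edgeR adjusted p = 0.876). Rgs12, a large protein with an RGS domain among several others (0.72 ± 1.43, edgeR adjusted p = 0.886), and Rgs16 (-0.37 ± 1.83, edgeR adjusted p = 0.955) had standard errors larger than their log2 ratios. Rgs16 was higher in fibroblasts in 3 of 4 strains, all of its C57BL6 mural reads lay in 1 cell, and without C57BL6 its log2 ratio was 5.97.

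**Figure D2:**
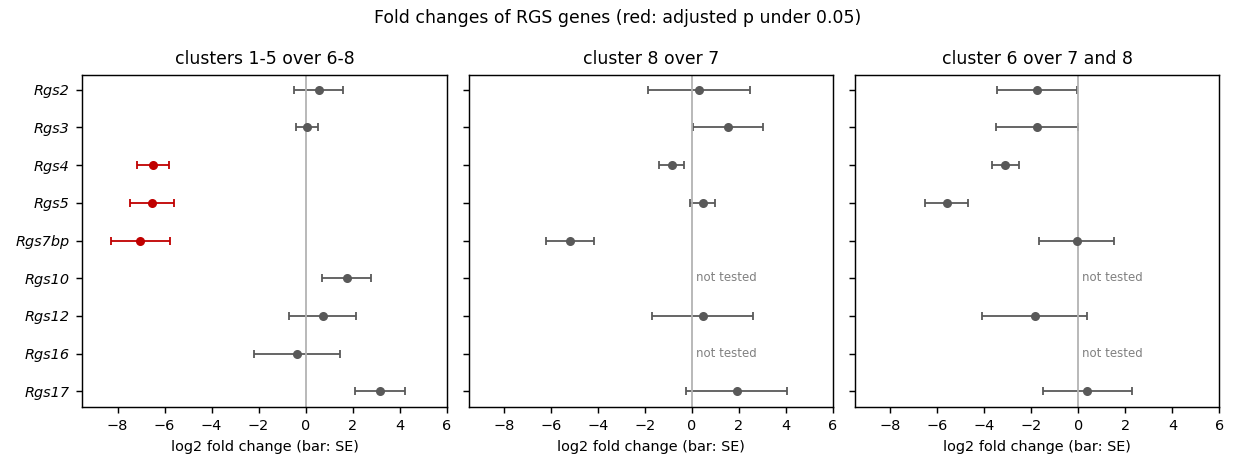
Log2 fold changes of the 9 genes with their standard errors from edgeR in clusters 1 to 5 over clusters 6 to 8, cluster 8 over cluster 7, and cluster 6 over clusters 7 and 8, with red for an adjusted p under 0.05. Only Rgs4 (-6.50), Rgs5 (-6.55) and Rgs7bp (-7.03) are red, all in the first panel.

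The low Rgs5 level in fibroblasts differed between plates. C57BL6 cells lay on 2 plates, apart from 1 fibroblast alone on a further plate that was left out here. On the one with no deposited mural cell, 10 fibroblast wells had an Rgs5 read, a share of 3.98% (Wilson 95% interval 2.18 to 7.18). On the other, where 11.2% of the deposited wells were mural, the share was 91.1% (87.3 to 93.9), with a median of 10.5 CPM. It was 100% in PdgfrbGFP (median 43.4 CPM, 35.2% mural wells), 88.5% in Cspg4dsRED (10.3 CPM, 84.05% mural wells) and 88.3% in Acta2GFP (23.02 CPM, 29.8% mural wells). The share thus differed between plates of 1 strain. These intervals cover counting error only, and PCR reads are not independent molecules.

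The same held in a weaker form for Rgs4, which had a read in 5.98% of fibroblast wells on the C57BL6 plate without mural wells and in 37.3% on the other one. It was read in 73.7% of PdgfrbGFP, 84.6% of Cspg4dsRED and 85.8% of Acta2GFP fibroblast wells. Rgs7bp was rare on all plates but one, with 1.99%, 1.37%, 3.39%, 0 of 26 wells (Wilson 95% upper limit 12.9%) and, in Acta2GFP, 34.2%.

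Within plates, fibroblast wells were also divided at the median of the Rgs5 reads found in mural wells of the same plate row and column. The median Rgs5 count of a fibroblast well was 2 at or below that median and 6 above it in C57BL6, 7 and 21.5 in PdgfrbGFP, 3 and 6 in Cspg4dsRED, and 3 and 17 in Acta2GFP. For Rgs4 the wells were divided anew, by the Rgs4 reads of those mural wells. The shares of fibroblast wells with an Rgs4 read were 21.2% and 53.4%, 56.8% and 90.7%, 69.2% and 100%, and 73.3% and 98.3%. The part of reads from other wells in these low values was not tested. With C57BL6 fibroblasts taken only from the plate without mural wells, an alternative chosen after seeing the data, edgeR gave log2 fold changes of -6.60 for Rgs5 (adjusted p = 0.00675), -6.48 for Rgs4 (adjusted p = 0.000586) and -7.26 for Rgs7bp (adjusted p = 0.0143).

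**Figure D3:**
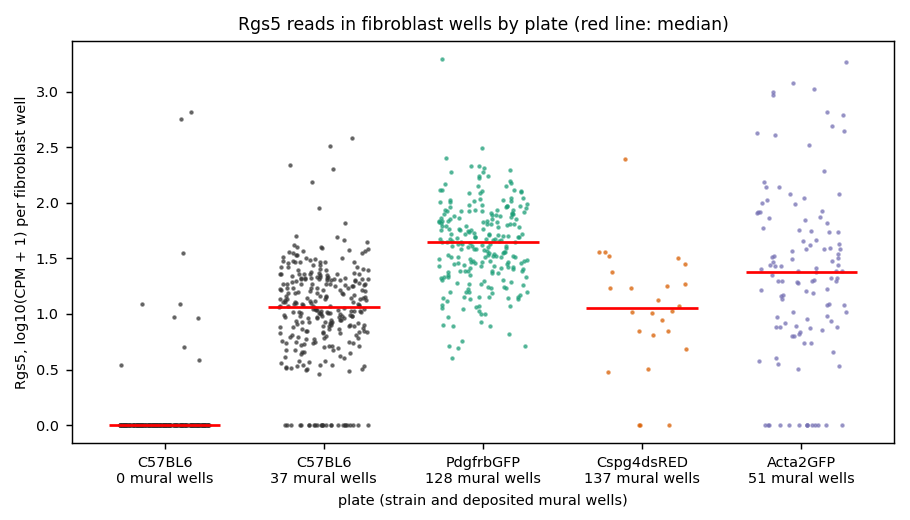
Rgs5 level of each fibroblast well as log10(CPM + 1) on 5 plates, each named by its strain and number of mural wells, with 1 point per well and the median as a red line. On the C57BL6 plate with no deposited mural cell most wells are at 0, and the other plates have medians of 10.3 to 43.4 CPM.

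Set against clusters 2 to 5 together, cluster 1 had higher Rgs5 and Rgs2 and lower Rgs17 in 4 of 4 strains, without passing edgeR. Rgs5 was at 94.3, 91.05, 155.5 and 595 CPM in cluster 1 of C57BL6, PdgfrbGFP, Cspg4dsRED and Acta2GFP, and at 9.45, 54.7, 10.9 and 24.8 CPM in clusters 2 to 5. All cluster 1 values lay above all others, and that of Acta2GFP far above. The log2 ratio by edgeR was 3.17 ± 0.79 at an adjusted p of 0.0804, and 2.08 at an adjusted p of 0.462 without Acta2GFP. Over all settings tried it ran from 2.08 to 4.22. Rgs17 was at 6.93, 0.867, 0 and 2.36 CPM in cluster 1 and at 67.9, 65.5, 8.11 and 40.96 CPM in clusters 2 to 5, again without overlap (-4.08 ± 1.22, edgeR adjusted p = 0.176). In Cspg4dsRED all Rgs17 reads of clusters 2 to 5 lay in cluster 4, with 96.2% in 1 cell. Over the settings tried, the log2 ratio of Rgs17 ran from -4.98 to -3.53. Rgs2 was at 69.5, 235.6, 27.1 and 173.5 CPM against 26.03, 18.9, 0.308 and 39.4 CPM, with overlapping ranges (2.64 ± 1.05, edgeR adjusted p = 0.433). The settings tried gave log2 ratios of 2.045 to 3.18 for Rgs2. Cluster 3 of C57BL6 alone was at 81.4 CPM of Rgs2, above its cluster 1. In Cspg4dsRED, cluster 1 was 3 cells, of which 1 held 95.5% of the 22 Rgs2 reads and none had an Rgs17 read.

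Of the 8 members tested in this comparison, 0 passed edgeR, 3 had an unadjusted p under 0.05 and DESeq2 called 2, Rgs5 (adjusted p = 0.00141) and Rgs17 (adjusted p = 0.00125). The background was 1.33% of 13201 genes called by edgeR, 5.22% called by DESeq2 and 8.87% with an unadjusted p under 0.05. Rgs7bp was too low to be tested.

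Single cells gave the spread behind the Rgs5 level of cluster 1. In Acta2GFP, 7 of 26 cluster 1 cells reached 500 CPM and 0 of 94 cells of clusters 2 to 5 did, with medians of 164.6 and 18.7 CPM. The medians were 81.5 and 39.2 CPM in PdgfrbGFP, 16.1 and 9.74 in Cspg4dsRED, and 10.8 and 10.4 on the C57BL6 plate with mural wells, where cluster 1 did not stand apart in its typical cell. On the C57BL6 plate without mural wells, 1 of 3 cluster 1 cells reached 564 CPM of Rgs5, and a cell of clusters 2 to 5 reached 656 CPM. In PdgfrbGFP, 0 of 22 cluster 1 cells and 1 cell of clusters 2 to 5 reached 500 CPM. The Cspg4dsRED value rests on 3 cells, of which 1 held 96.8% of the reads.

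The other fibroblast clusters were each set against the rest of clusters 2 to 5. Rgs3 had its highest mean in cluster 2, at 128.04 ± 71.1 CPM against 53.7 ± 21.6 CPM in clusters 3 to 5, higher in 4 of 4 strains and without overlap (1.28 ± 0.435, edgeR adjusted p = 0.747). Taken singly, cluster 3 of PdgfrbGFP was higher still at 213.7 CPM, with 99.4% of the reads in 1 of 7 cells. In cluster 4 Rgs3 was at 34.7 ± 21.03 CPM against 119.1 ± 85.2 CPM in clusters 2, 3 and 5. It was lower there in 4 of 4 strains without overlap (-1.78 ± 0.573, edgeR adjusted p = 0.687). The 2 results share cells. Rgs17 had its highest mean in cluster 3, at 133.9 ± 84.8 CPM against 52.5 ± 14.1 CPM, higher than the rest in 3 of 3 strains without overlap (1.51 ± 0.729, edgeR adjusted p = 0.892). The PdgfrbGFP value, 229.9 CPM, came from 2 of 7 cells, and in C57BL6 cluster 2 alone was higher (114.3 against 102.6 CPM). In Acta2GFP 1 cell held 73.7% of the cluster 3 reads. Without PdgfrbGFP the log2 ratio was 0.95. Rgs10 had a mean of 53.5 ± 37.3 CPM in cluster 5, which 2 strains held, and in both of these cluster 2 was higher, at 50.9 against 27.05 CPM in C57BL6 and 88.1 against 79.9 CPM in PdgfrbGFP. In these 4 comparisons, which share cells, edgeR called 0.0% of all genes and 0 members, while 641, 895, 670 and 630 genes had an unadjusted p under 0.05 for clusters 2, 3, 4 and 5. The members with an unadjusted p under 0.05 numbered 2, 0, 2 and 1, beside 4.62%, 6.05%, 4.75% and 3.89% of all genes.

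DESeq2 called 1 member in 2 of these comparisons, Rgs16 in both, lower in cluster 2 (-6.39, adjusted p = 0.00709) and higher in cluster 4 (6.69, adjusted p = 0.00085), where it called 1.22% and 1.29% of all genes. Rgs16, whose protein shares the cysteine start shown above, reached 8.77 ± 6.17 CPM in cluster 4. By strain it was at 7.06, 13.2, 14.1 and 0.783 CPM, and over all clusters only 5 cells had at least 10 Rgs16 reads, so a single cell could set the level of a strain.

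**Figure D4:**
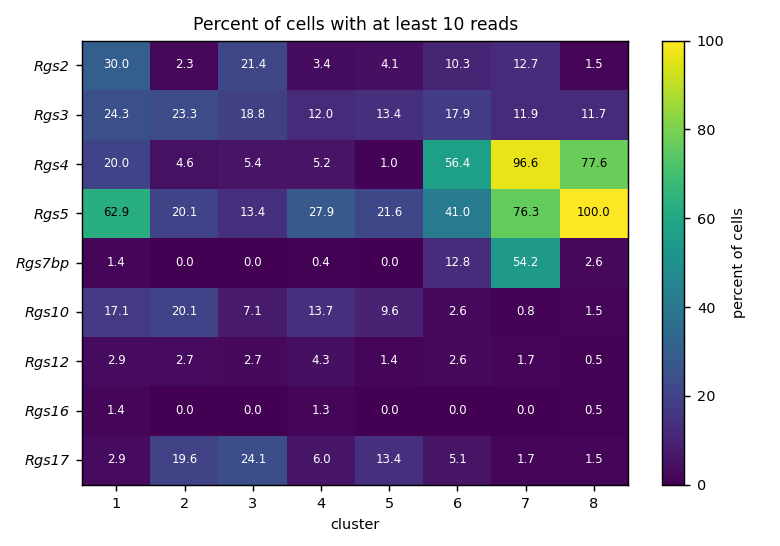
Heat map of the percent of the cells of each cluster with at least 10 reads of each of the 9 genes, printed in each square. Rgs5 reaches 100% in cluster 8 and Rgs4 96.6% in cluster 7, Rgs7bp reaches 54.2% in cluster 7, and Rgs12 and Rgs16 stay under 5% in all clusters.

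Clusters 7 and 8 both had high Rgs4 and Rgs5, and Rgs7bp was higher in cluster 7 in 3 of 3 strains. Rgs7bp was at 7.71 CPM in cluster 8 and 426 CPM in cluster 7 of PdgfrbGFP, at 18.6 and 217.8 CPM in Cspg4dsRED, and at 1.79 and 269.3 CPM in Acta2GFP. The PdgfrbGFP value in cluster 7 came from 3 of 9 cells, with 73.3% of the reads in 1 cell and a median cell at 0. Every cluster 7 value was more than 10 times the cluster 8 value of its strain. On average the level was 9.37 ± 8.53 and 304 ± 108.4 CPM over 3 strains, with a log2 ratio by edgeR of -5.18 ± 1.02 at an adjusted p of 0.0727. With the strain as a block, edgeR gave -5.62 (adjusted p = 0.0373), and without Acta2GFP -4.87 (adjusted p = 0.0318), while without PdgfrbGFP it was -4.60 (adjusted p = 0.335) and without Cspg4dsRED -6.33 (adjusted p = 0.0979). The call depended on the fit and the direction did not. The sum of 9 cardiomyocyte markers moved with it, at 1299 to 1965 CPM in cluster 7 and 170.9 to 348 CPM in cluster 8. Among mural sums Pln reached 1276 CPM, Tnnt2 608 CPM, Mb 98.3 CPM and Myh6, the heart muscle myosin, 37.6 CPM. In fibroblast sums these genes reached 22.3, 149.3, 94.6 and 34.5 CPM in the same order. What this marker sum has to do with the difference was not tested.

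Of the 7 members tested between clusters 8 and 7, 0 passed edgeR, 1 had an unadjusted p under 0.05 and DESeq2 called 1, in both cases Rgs7bp (DESeq2 adjusted p = 0.000122). Over all genes, 6.88% had an unadjusted p under 0.05 and DESeq2 called 3.202%. The edgeR background was 0.194% of 11867 genes, or 0.379% with the size factors of DESeq2, and the share of those calls that were higher in cluster 8 was 43.5% and 26.7%. C57BL6 had 1 cell in cluster 7 and did not enter this comparison.

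Rgs4 was at 2116 CPM in cluster 8 and 3181 CPM in cluster 7 of PdgfrbGFP, at 2081.5 and 2389 CPM in Cspg4dsRED, and at 406 and 2130 CPM in Acta2GFP. It was lower in cluster 8 in 3 of 3 strains without overlap, and the difference did not pass the test (-0.87 ± 0.528, edgeR adjusted p = 0.908). Rgs5 was at 9556.5 and 8213 CPM, 7543 and 2395.5 CPM, and 3215 and 2565 CPM in the same order, with overlapping ranges. The log2 ratio of Rgs5 was 0.45 ± 0.531 (edgeR adjusted p = 0.989), and its direction flipped to -0.14 with the size factors of DESeq2. It was 1.13 without PdgfrbGFP and 0.054 without Cspg4dsRED. Cluster 8 of Acta2GFP stood apart in its markers too, with smooth muscle markers at 4033 CPM against 201.1 to 1169.8 CPM in the other strains and pericyte markers at 3727.5 CPM against 11322 to 14040 CPM. The part of this in its low Rgs4 level was not tested.

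Cell by cell, with the strains pooled, cluster 8 was uniform for Rgs5 and mixed for Rgs4. All its cells had at least 10 Rgs5 reads and 97.4% reached 1000 CPM. Rgs4 had at least 10 reads in 77.6% of them, reached 1000 CPM in 62.8% and stayed below 100 CPM in 47 cells. By strain, Rgs4 reached 1000 CPM in 24 of 33 C57BL6, 58.8% of PdgfrbGFP, 24 of 29 Cspg4dsRED and 5 of 15 Acta2GFP cells. In cluster 7, where 75 cells were Cspg4dsRED, Rgs4 had at least 10 reads in 96.6% of its cells and reached 1000 CPM in 78.8%, while Rgs5 reached 1000 CPM in 55.1% and stayed below 100 CPM in 34 cells.

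The cells of cluster 7 with little Rgs5 came unevenly from the strains. Rgs5 reached 1000 CPM in 9 of 9 PdgfrbGFP cells, in 39 of 75 Cspg4dsRED cells and in 16 of 33 Acta2GFP cells, and 28 of the 34 cells below 100 CPM were Cspg4dsRED. With a limit of 10 reads, cluster 7 held 88 cells with both genes, 26 with Rgs4 alone, 2 with Rgs5 alone and 2 with neither. In cluster 8, 77.6% of cells had both, 44 had Rgs5 alone and 0 had Rgs4 alone.

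Rgs7bp had at least 10 reads in 64 cells of cluster 7 (54.2%) and in 5 cells of cluster 8 (2.55%). After each cell was thinned to 50000 counts, the shares with a read were 58.97% (Wilson 95% interval 49.9 to 67.5) and 3.59% (1.75 to 7.22), and 0 to 5.71% in the 5 fibroblast clusters, which set the background. Of the 64 cells, 62 also had at least 10 Rgs4 reads and 46 at least 10 Rgs5 reads. By strain, the thinned share in cluster 7 was 33.3% of 9 PdgfrbGFP cells, 58.1% of 74 Cspg4dsRED cells and 69.7% of 33 Acta2GFP cells. The background differed by strain too, at 0 to 4.55% in the fibroblast clusters of the other strains and at 7.5% to 21.4% in those of Acta2GFP.

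**Figure D5:**
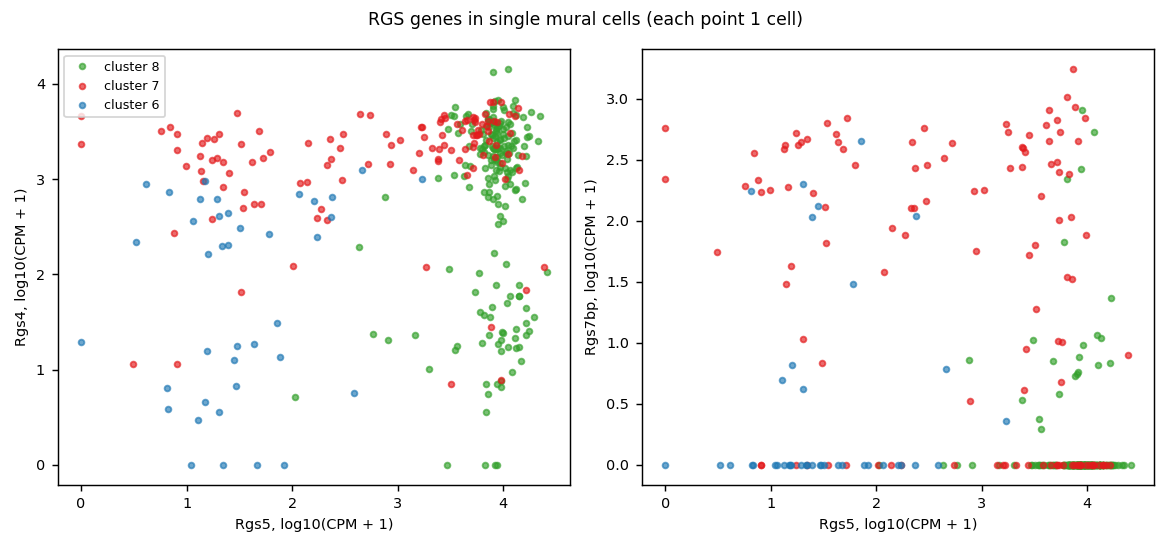
Rgs4 (left) and Rgs7bp (right) against Rgs5, all as log10(CPM + 1), with 1 point per cell coloured by cluster 6, 7 or 8. Cells of cluster 8 lie at high Rgs5 (97.4% at 1000 CPM or more), those of cluster 7 spread along Rgs5 with 34 below 100 CPM, and most cells with Rgs7bp belong to cluster 7.

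Cluster 6 had low Rgs4 and Rgs5. Like cluster 7 it carried smooth muscle markers and few pericyte markers, which summed to 37.8 to 502.5 CPM in cluster 6 and 90.2 to 761 CPM in cluster 7. Fibroblast markers were there at 3223 CPM in Cspg4dsRED and 3108 CPM in Acta2GFP, against 309 and 776.5 CPM in cluster 7 and 959.5 and 3334 CPM in cluster 8 of these strains. Valve markers were at 1298 CPM in cluster 6 of C57BL6, 215.1 in Cspg4dsRED and 1388 in Acta2GFP, and at most 642 CPM in clusters 7 and 8. Their part in the low levels was not tested. Rgs5 was at 7.84, 180.7 and 84.2 CPM in cluster 6 of C57BL6, Cspg4dsRED and Acta2GFP, and at 8033.5, 3791.5 and 2798 CPM in clusters 7 and 8 together. Rgs4 was at 95.02, 377 and 147.9 CPM against 1915, 2306 and 1511 CPM. Neither gene overlapped between the sides. In log2 units edgeR gave -5.61 ± 0.918 for Rgs5 (adjusted p = 0.108) and -3.10 ± 0.576 for Rgs4 (adjusted p = 0.135).

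In that comparison edgeR called 4 of 12117 genes (0.033%) and 0 of the 7 members tested, 2 members had an unadjusted p under 0.05, and DESeq2 called 1, Rgs5 (adjusted p = 0.00121). Over all genes, 5.74% had an unadjusted p under 0.05 and DESeq2 called 2.81%. With the strain as a block edgeR called 0.883% of genes and 2 members, Rgs5 (-5.90, adjusted p = 4.94e-47) and Rgs4 (-3.32, adjusted p = 3.1e-08), in a fit with few residual degrees of freedom. Without C57BL6, whose 3 cells carried fibroblast markers, edgeR gave -4.51 for Rgs5 (adjusted p = 0.0303) and -2.75 for Rgs4 (adjusted p = 0.144). Without Acta2GFP both passed, at adjusted p = 4.7e-09 for Rgs5 and 0.0138 for Rgs4, and without Cspg4dsRED, which held 33 of the 39 cells, neither did, both at adjusted p = 0.409.

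Rgs7bp in cluster 6 differed between strains, at 0 CPM in C57BL6, 14.2 in Cspg4dsRED and 270 in Acta2GFP, the last from 3 cells that all lay between 100 and 1000 CPM. Against clusters 7 and 8 the log2 ratio was -0.06 ± 1.60 (edgeR adjusted p = 0.999), and its sign flipped with the size factors of DESeq2 (0.12). Without C57BL6 it was 0.0046 (edgeR adjusted p = 0.9998). Of the 33 Cspg4dsRED cells of cluster 6, 30 were below 100 CPM for Rgs7bp and 26 for Rgs5.

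Other parts of the G protein pathway were counted from lists of genes, to be read beside the 5.93% of all genes that edgeR called. In fibroblasts against mural cells, edgeR called 1 of 12 other RGS genes tested, Grk3, a kinase of active receptors with an RGS-like domain, at 0.597 ± 0.573 CPM against 57.6 ± 35.1 CPM (-6.50 ± 0.939, adjusted p = 0.00339). Of 25 G protein subunits 2 fell, Gng11 (-2.22, edgeR adjusted p = 0.0276) and Gnb4 (-1.95, edgeR adjusted p = 0.0231), a gamma and a beta subunit, and no alpha subunit was called. For the other RGS genes and the subunits the share called was close to that of all genes. Of 17 effectors 1 rose and 3 fell. Adcy7 was higher in fibroblasts at 114.95 ± 30.4 against 6.46 ± 8.65 CPM (4.15, edgeR adjusted p = 0.0148), whereas the cyclases Adcy5 (-5.36, edgeR adjusted p = 0.0373) and Adcy6 (-3.44, edgeR adjusted p = 0.00472) and the cGMP-dependent kinase Prkg1 (-2.70, edgeR adjusted p = 0.0167) were lower.

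Of 30 receptors of vasoactive ligands, 6 rose and 7 fell in fibroblasts. The largest falls were those of the adrenergic receptors Adra1d (-9.63, edgeR adjusted p = 0.00986) and Adra2b (-7.90, edgeR adjusted p = 0.00105), the UDP-sugar receptor P2ry14 (-8.14, edgeR adjusted p = 0.0053) and the endothelin receptor Ednrb (-7.74, edgeR adjusted p = 0.00932). Adra1d was low even in mural cells, at 7.21 ± 7.91 CPM. The median log2 fold changes were 0.28 for the other RGS genes, -0.19 for subunits, -0.72 for effectors and -0.14 for receptors, beside -0.02 over all genes tested. Between clusters 8 and 7, edgeR called 0 genes of these 4 lists.

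Genes induced by tissue dissociation were counted because Rgs2 is known as an early response gene. In fibroblasts against mural cells 1 of 16 such genes passed, Jun (1.48, edgeR adjusted p = 0.0253), a share near the 5.93% of all genes, and in cluster 8 against cluster 7 1 of 16 passed, the stress gene Atf3, which was lower (-4.11, edgeR adjusted p = 0.0314), beside 0.194% of all genes. The summed level of the list was 5566 to 16926 CPM in cluster 1, where Rgs2 had its highest mean. In cluster 3, where Rgs2 was at 81.4 CPM in C57BL6, 0 in PdgfrbGFP and 123.9 CPM in Acta2GFP, the list was at 14874 to 25592 CPM. In cluster 5 it was at 26313 to 28923 CPM, with Rgs2 at 22.1 ± 9.28 CPM. It was 11944 to 20241 CPM in cluster 7 and 4252 to 8050 CPM in cluster 8.

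The genes most like each member were listed by Pearson correlation of log2(CPM + 1) over the 27 sums of strain and cluster, among 10326 genes with a mean of at least 10 CPM. The sums share plates and depth, and the correlations are given as a description. Rgs5 was closest to the sodium channel gene Scn3a (0.92), Car2 (0.92), Casq2 (0.92), Tbx3os1 (0.91) and Inpp4b (0.91). Rgs4 was closest to Sncg (0.90), Inpp4b (0.89), Nrarp (0.89), Gm38287 (0.89) and its neighbour Rgs5 (0.89). Rgs7bp was closest to the T-type calcium channel gene Cacna1h (0.94), Pcp4l1 (0.93), Fam81a (0.93), Dysf (0.91) and Dgkg (0.90). Among the members that were low, the nearest genes were Clmp for Rgs10 (0.89), Rpp25l for Rgs3 (0.90), Slc43a1 for Rgs17 (0.82), Mst1r for Rgs12 (0.77) and Fam160b2 for Rgs2 (0.76). Rgs16 had a mean under 10 CPM and was not compared.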

How the data were processed

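Each cell was a library of single 50-base reads made with Smart-seq2, and the authors trimmed the reads, aligned them to GRCm38 using TopHat2 with either Bowtie version, counted them per gene with featureCounts, removed poor cells, cells with an endothelial or immune signature and likely doublets (cells with very many genes) and clustered the rest with pagoda2 on these counts. The deposited values are whole-number read counts per gene and cell, not normalised. The annotation release and the strand setting are not given in the sources used here. The table held 46609 features, of which 92 ERCC spike-ins (1.825% of counts) were left out of library sizes and tests. Of 46517 genes, 46005 matched GENCODE release 21, and 28932 had a count. Clusters were taken from the labels. Doublets were not called again here, after the authors' own gate and gene limit.

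Counts were summed per strain and cluster or side over at least 3 cells and tested with edgeR 4.0.16 in R 4.3.3 (quasi-likelihood test, TMM, filterByExpr with a minimum count of 10, Benjamini-Hochberg adjustment over all genes tested, threshold 0.05). Levels in CPM are those of the sums, and the median over cells was tried as an alternative. Strains were the replicates. The same strains stand on both sides of each comparison, from the same plates and sorts, so they pair the sums by origin. Deviations from the side means of all genes correlated at 0.0227 to 0.2715 within a strain, and each strain matched itself best except Cspg4dsRED in fibroblasts against mural cells. Tested alternatives were DESeq2 1.42.0, its size factors, no filter, strain as a block, leaving out each strain, sums of at least 10 cells, plates as the unit (within fibroblasts only), cells thinned to 50000 counts (2 cells fell below), and leaving out clusters 1 and 6. The tests were tried on simulated data first.

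Named were all 9 members, up to 4 called genes per list and comparison by size of change, and the 5 genes most like a member (1 for the low members). The members and lists were chosen with earlier results of these data known. Shares have Wilson 95% intervals. Coding starts came from GENCODE transcripts and promoter windows from RefSeq. Figures and tables used numpy 2.4.6, pandas 2.3.3, scipy 1.17.1 and matplotlib 3.10.9.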

Additional observations from a re-analysis of the deposited data

Results flagged for a closer look

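Groups of 4 strains were looked at where a member reached 10 CPM in at least 1 of them, 30 groups in all. In 9 of these, given below, 1 strain stood far from the other 3 by Dixon's criterion. Chance marks about 1 in 20 groups of normal values. No chance rate was found for these, since 4 of the groups met the 10 CPM limit only through the strain that stood apart, and single cells held most of the reads in many. The levels below are CPM of summed counts.

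In cluster 8, Acta2GFP had 405.8 CPM of Rgs4 against 1929 to 2116 CPM in the other strains, and 10.6 CPM of Rgs3 against 111.6 to 119.8 CPM. The same 15 cells had 62.3 CPM of Rgs12 against 0.216 to 1.20 CPM, with 99.3% of the reads in 1 cell, and 29.27 CPM of Rgs17 against 0 to 1.49 CPM, with 84.2% in 1 cell.

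In cluster 1, Acta2GFP had 595 CPM of Rgs5 against 91.05 to 155.5 CPM, with 29.2% of the reads in its highest cell among 26. It had 32.7 CPM of Rgs16 against 0 to 0.169 CPM, with 98.6% of the reads in 1 cell. PdgfrbGFP had 77.9 CPM of Rgs5 in cluster 2 against 7.13 to 16.1 CPM, with 58.6% of the reads in 1 of 49 cells. Cspg4dsRED had 121.9 CPM of Rgs12 in cluster 4 against 7.80 to 22.1 CPM, with 99.8% in 1 cell, and C57BL6 had 29.01 CPM of Rgs16 in cluster 8 against 0 to 0.15 CPM, all of it in 1 cell.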

How the results depend on the processing

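In fibroblasts against mural cells, the calls of Rgs4, Rgs5 and Rgs7bp were made under all 12 alternatives each, with adjusted p at most 0.00766, 0.0278 and 0.0457 by edgeR or DESeq2. Among these, sums of at least 10 cells dropped no sum, so this setting repeated the reported fit and could not change a call. Of the alternatives for single genes, 84.7% kept direction and side of the threshold, 8.26% passed it where the reported fit did not, and 7.02% turned direction, none of the latter past the threshold. Settings that repeated a fit are counted in these shares. The causes were not tested.

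Turned directions in fibroblasts against mural cells were as follows, in log2 units. Rgs3 came to -0.0014 with DESeq2, -0.0014 with its size factors and -0.19 in thinned cells, Rgs12 to -0.12 in thinned cells, and Rgs2 to -0.40 without clusters 1 and 6. Leaving out 1 strain gave -0.023 (without PdgfrbGFP) to 1.00 (without Cspg4dsRED) for Rgs2, -0.47 (without Cspg4dsRED) to 0.51 (without PdgfrbGFP) for Rgs3, -0.52 (without Cspg4dsRED) to 3.65 (without Acta2GFP) for Rgs12 and -1.04 (without Acta2GFP) to 5.97 (without C57BL6) for Rgs16. Rgs5 in cluster 8 against 7 came to -0.14 with DESeq2 and -0.14 with its size factors. Rgs7bp in cluster 6 against 7 and 8 came to 0.12 with DESeq2, 0.12 with its size factors, and from -3.66 (without Acta2GFP) to 0.71 (without Cspg4dsRED) when 1 strain was left out.

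With the strain as replicate block (strains pair the sums by plate and sort), Rgs7bp passed in cluster 8 against 7 (1 member called) and Rgs4 and Rgs5 in cluster 6 against 7 and 8 (2 members), and Rgs16 turned to 5.34 in fibroblasts against mural cells without passing. The block changed no other call.

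Members called in cluster 8 against 7 numbered 1 with DESeq2, 1 with its size factors, 1 without a filter, and 0 (without PdgfrbGFP or Cspg4dsRED) to 1 (without Acta2GFP) with a strain left out. In cluster 6 against 7 and 8 they numbered 1 with DESeq2, 1 with its size factors, 2 without a filter, 1 in thinned cells, and 0 (without Cspg4dsRED) to 2 (without Acta2GFP). DESeq2 called 2 in cluster 1 against 2 to 5, 1 in cluster 2 and 1 in cluster 4.

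Over all genes, DESeq2 called 12.7% in fibroblasts against mural cells (edgeR 5.93%), 5.22% in cluster 1 (1.33%), 3.202% in cluster 8 against 7 (0.194%), 2.81% in cluster 6 (0.033%), and 0.789% to 2.61% in clusters 2 to 5 (0.0%). The block gave 4.81%, 0.742%, 0.691% and 0.883% in the first 4, and 0.236% in cluster 3. Without a filter edgeR called 1.69% in cluster 8 against 7 and 0.825% in cluster 6. Leaving out 1 strain gave 2.71% (without Acta2GFP) to 4.00% (without Cspg4dsRED) in the first comparison, 0.197% (without Acta2GFP) to 0.833% (without Cspg4dsRED) in cluster 1, 0 (without PdgfrbGFP) to 1.04% (without Acta2GFP) in cluster 8 against 7 and 0 (without Cspg4dsRED) to 0.520% (without Acta2GFP) in cluster 6. Size factors moved the median of all genes by 0.12 in cluster 6 and 0.15 in cluster 3, and by less than 0.1 elsewhere. Not run were sums of at least 10 cells in cluster 6, and cluster 5 with a strain left out, since 2 strains held it. Plates as the unit were tried for clusters 1 to 5 only, since the mural cells of each strain lay on 1 plate.

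For Rgs16, 5 cells held 96.8% of the reads, and for Rgs12, 5 cells held 47.96%. Levels taken as the median over cells, averaged over strains, were far lower for members read in few cells. Rgs2 in cluster 1 came to 3.24 CPM in place of 126.4, and Rgs3 to 17.5 in place of 128.04 in cluster 2. In cluster 8 Rgs3 came to 0 in place of 89.6 CPM. Rgs4 in cluster 7 was at 2784 in place of 2567 CPM, and Rgs5 in cluster 8 at 7372 in place of 7073 CPM.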

Other observations

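After thinning to 50000 counts, the members that were low on average were each read in a minority of cells. Rgs17 had a read in 25.9% of cells in cluster 3 (Wilson 95% interval 18.7 to 34.7), 22.4% in cluster 2 (17.4 to 28.3) and 10.7% in cluster 4 (7.37 to 15.4), and in 0.855% in cluster 7 (0.151 to 4.68). Rgs10 had one in 24.7% of cells in cluster 2 (19.4 to 30.8), 12.7% in cluster 5 (9.33 to 16.98) and 0.855% in cluster 7 (0.151 to 4.68). Rgs2 had one in 35.7% of cells in cluster 1 (25.5 to 47.4), 23.2% in cluster 3 (16.4 to 31.8) and 19.7% in cluster 7 (13.5 to 27.8), and in 5.13% to 10.3% elsewhere. These shares pool strains, and for Rgs2 the strains differed, with 15.8% in cluster 1 and 22.2% in cluster 3 of C57BL6 and 53.8% and 42.9% in Acta2GFP. Rgs3 was read in every cluster, from 17.1% of cells in cluster 7 to 35.7% in cluster 1. These intervals cover counting error, and cells of 1 strain share their plate.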
